A study of Homo sapiens with 22 samples.

Results

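MYCN, MYCNOS, DDX1 and NBAS at 2p24, and MEIS1 and ETAA1 at 2p14, are 6 of the 38865 protein-coding and long noncoding RNA genes that GENCODE places on hg19. A ChIP-seq peak was assigned to a gene when it overlapped the gene body extended by 50 kb on each side (the window of the gene) or reached within 1 kb of any of its transcription start sites (TSSs). The genes were chosen by the number, width and rank of their peaks in CHP-134 against IMR-32, so these measures are described for the 2 lines and were not tested between them. Both are human neuroblastoma cell lines in which MYCN is amplified, and N-MYC and WDR5 were immunoprecipitated from each. CHP-134 cells had received DMSO or a compound for 4 h, with 3 libraries per antibody and treatment, and IMR-32 cells were untreated, with 2 libraries per antibody. The compound is called C38b in sample titles and 419C91 in another label, and it is not identified here. The DMSO concentration is 0.005% in one description and 0.0005% in another. Each line had its own sequencing format (single reads for CHP-134, paired reads for IMR-32), so line and sequencing cannot be told apart.

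N-MYC, the product of MYCN, is a basic helix-loop-helix transcription factor that binds E-boxes together with MAX, and its gene is amplified in aggressive neuroblastoma. Amplicons at 2p24 often carry the neighbours of MYCN, such as DDX1 (an RNA helicase of the tRNA ligase complex) and NBAS (a subunit of a tether for vesicles returning from the Golgi to the endoplasmic reticulum), and MYCNOS is transcribed antisense to MYCN. WDR5 is a scaffold protein of histone methyltransferase complexes that contacts MYC proteins, MEIS1 is a homeodomain transcription factor of the TALE class, and ETAA1 activates the ATR kinase at stalled replication forks.

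The members lie on chromosome 2 of hg19. NBAS spans 15307040 to 15701464 on the minus strand, DDX1 15731302 to 15774470 on the plus strand, MYCNOS 16058473 to 16082371 on the minus strand and MYCN 16080672 to 16087129 on the plus strand. MEIS1 spans 66660584 to 66801001 and ETAA1 67624454 to 67639221, both on the plus strand. The windows of neighbouring genes overlap, so 1 peak can count for both MYCN and MYCNOS, or for both DDX1 and NBAS.

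The sequences below surround summits on which the results turn. They are the forward strand of GRCh37, the assembly that hg19 names. Capitals mark the canonical E-box CACGTG or, where none was present, the nearest CANNTG to the summit, and both motifs read the same on either strand. The first sequence holds the IMR-32 N-MYC summit at DDX1 (chr2:15731800-15731829, in an exon of DDX1), the second that at MYCN (chr2:16080365-16080465, just upstream of MYCN and in an exon of MYCNOS), and the third an N-MYC site in an intron of NBAS that was listed in both lines (chr2:15525495-15525595).
DDX1 start: tgtgctccgaaCACATGgtgcccagaacga
MYCN start: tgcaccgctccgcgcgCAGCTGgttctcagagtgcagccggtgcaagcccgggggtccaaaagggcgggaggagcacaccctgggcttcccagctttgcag
NBAS intron: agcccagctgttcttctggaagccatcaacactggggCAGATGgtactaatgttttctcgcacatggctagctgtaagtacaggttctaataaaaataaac

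Only 4 of the 56 N-MYC sites in the 6 windows had CACGTG within 100 bp of the summit, and all 4 are shown. The first (chr2:16026266-16026366) and the second (chr2:16030128-16030228) lie beyond the end of MYCNOS, the third (chr2:16133457-16133557) lies downstream of MYCN, and the fourth (chr2:66800756-66800785) lies in the last exon of MEIS1.
CACGTG site 1: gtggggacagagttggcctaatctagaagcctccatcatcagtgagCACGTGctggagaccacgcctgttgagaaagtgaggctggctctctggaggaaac
CACGTG site 2: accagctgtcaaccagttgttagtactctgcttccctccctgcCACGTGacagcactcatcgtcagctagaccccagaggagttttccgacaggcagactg
CACGTG site 3: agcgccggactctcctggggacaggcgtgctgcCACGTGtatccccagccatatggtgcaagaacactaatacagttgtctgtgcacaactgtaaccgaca
CACGTG site 4: ttgtttctaaaCACGTGgatgcgcagagag

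IMR-32 lists held more peaks in the 6 windows, relative to their length, than CHP-134 DMSO lists did. For N-MYC, the 3 DMSO libraries listed 6 of 15286, 7 of 9125 and 11 of 12283 peaks there, and the 2 IMR-32 libraries listed 38 of 8286 and 27 of 5242. That is 0.393, 0.767 and 0.896 peaks per 1000 listed in CHP-134, against 4.59 and 5.15 in IMR-32, and the lines did not overlap. As a percent of the list, the windows took 0.0685% ± 0.0261 (SD, n = 3) of the N-MYC list in CHP-134 DMSO cells and 0.487% ± 0.0399 (SD, n = 2) of it in IMR-32 cells. For WDR5, the DMSO libraries listed 7 of 4891, 2 of 1758 and 3 of 1671 peaks, and the IMR-32 libraries 18 of 1693 and 18 of 1258. The percent of the WDR5 list was 0.146% ± 0.0330 (SD, n = 3) in CHP-134 and 1.25% ± 0.260 (SD, n = 2) in IMR-32. Read depth is unknown, since no totals come with the lists, and a missing peak is one that did not reach the authors' threshold.

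**Figure D1:**
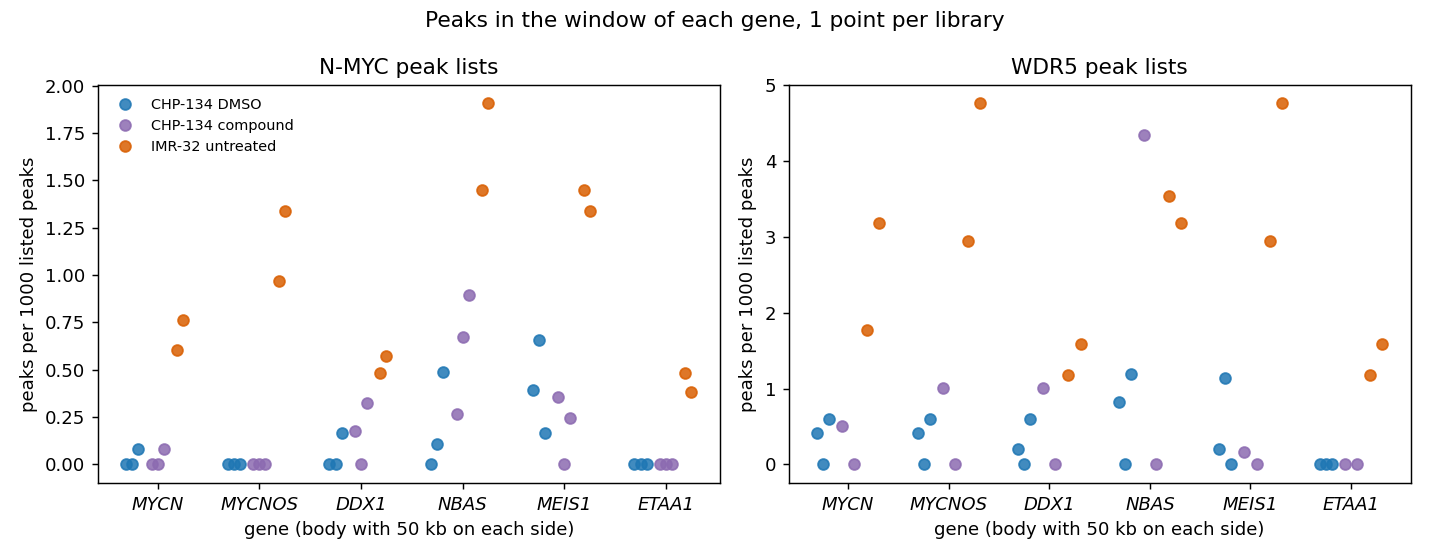
Peaks in the window of each gene per 1000 listed peaks (y axis), by gene (x axis), for N-MYC lists (left) and WDR5 lists (right), with 1 point per library coloured by line and treatment. Compound WDR5 replicate 2, whose list holds 15 peaks, is left out. For N-MYC the IMR-32 points lie above the CHP-134 points, on a measure by which the genes were chosen. The share of all genes whose lines separate in this way was not computed. For WDR5 the compound library with 34 window peaks is the highest point at NBAS.

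The excess rested on peaks that stood on a high local background. The fold and the p-value that MACS2 lists for a peak together fix the pileup at its summit and the background the summit was compared with, and the background was divided by the median of the same list. At 2p24, this ratio ran from 33.8 to 50.0 at the 40 IMR-32 N-MYC peaks and from 29.2 to 46.9 at the 21 IMR-32 WDR5 peaks, counted over both libraries. In CHP-134 DMSO cells it reached 10 or more at 9 of 10 N-MYC peaks (range 1.44 to 43.99) and at 9 of 9 WDR5 peaks (range 18.1 to 91.1). At most listed peaks of 2p24, both lines were therefore far above their own median background. In CHP-134 DMSO cells, 8 of the 9 high N-MYC peaks came from replicate 3 and 1 from replicate 2. All 9 lay in the windows of NBAS and DDX1. The N-MYC peak at 1.44 lay in the MYCN window. A WDR5 peak of compound replicate 1, between DDX1 and MYCNOS, had a ratio of 0.787, so in CHP-134 the high background did not hold at every listed peak. When peaks with a ratio of 10 or more were left out, a setting chosen after the data had been seen, the N-MYC share of the windows was 0.0432% in CHP-134 DMSO cells and 0.0123% in IMR-32 cells, and the difference between the lines changed from 0.418 to -0.0309 percentage points. For WDR5 the difference fell from 1.10 to 0.0373 percentage points. In IMR-32 this limit took out 36 of 38 and 27 of 27 N-MYC peaks of the windows. It took out 18 of 18 and 16 of 18 WDR5 peaks. The fall of the IMR-32 share was thus largely fixed by the limit and adds no separate support. More copies of a locus raise the local background and the pileup alike, and more copies and more binding per copy cannot be told apart from these lists.

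**Figure D2:**
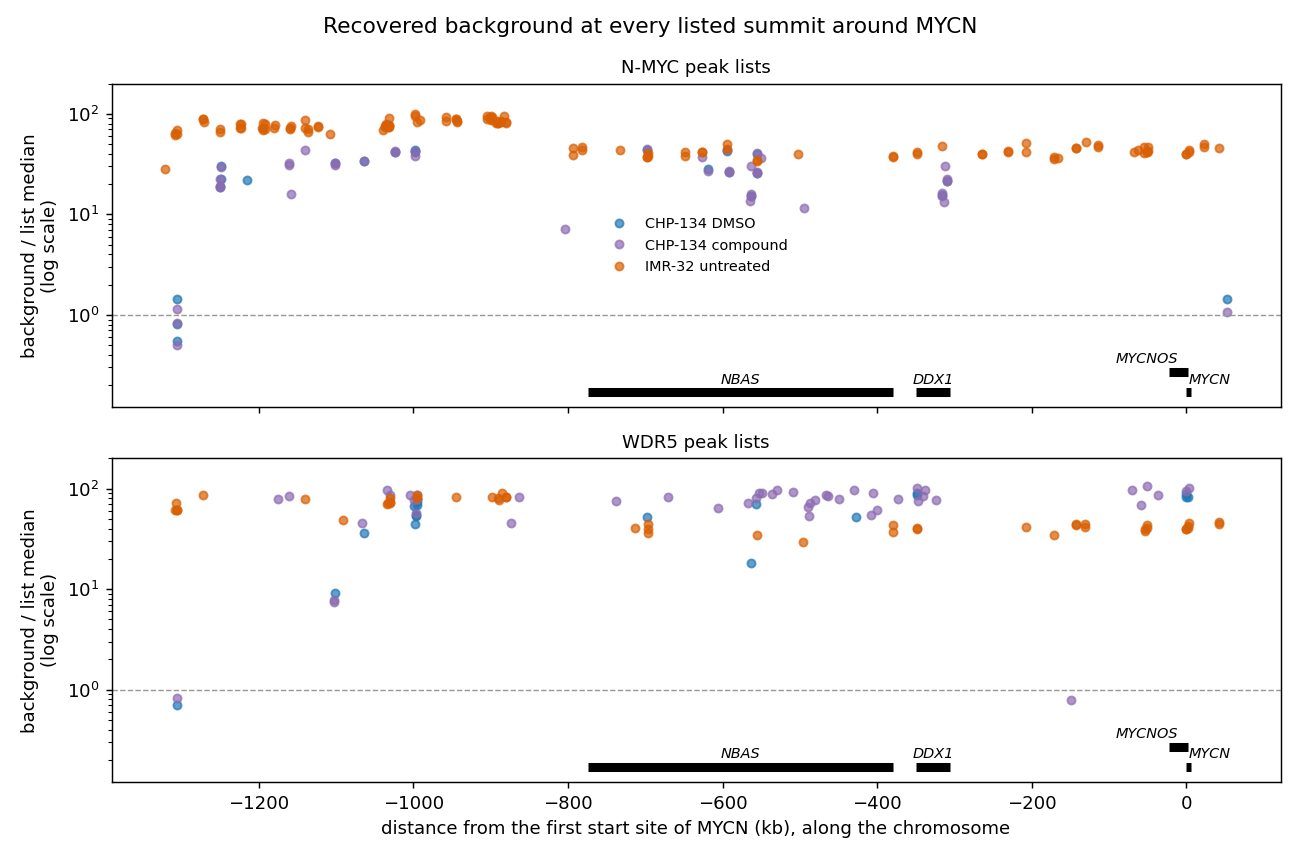
Local background at every listed summit around MYCN, divided by the median of the same list (y axis, log scale), against distance from the first TSS of MYCN (x axis, kb), for N-MYC lists (top) and WDR5 lists (bottom). Black bars are gene bodies and the dashed line is the list median. Nearly all points over NBAS, DDX1, MYCNOS and MYCN lie above 10 in both lines, and most IMR-32 points are higher still on the left of NBAS.

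The listed peaks gave the span of the high background. In IMR-32 N-MYC lists the first summit with a ratio of 10 or more at 2p24 was at 14759160 in replicate 1 and 14772663 in replicate 2, and the last was at 16122604 and 16103602, with no nearby peak of ordinary background listed after it, so the ends of the stretch were not resolved. Within 500 kb before the NBAS window the median ratio was 77.2 and 81.2 in the N-MYC libraries, against 41.6 and 42.1 in the windows of the 2p24 genes. The WDR5 libraries had 80.6 and 71.4 before the NBAS window and 39.7 and 43.3 within the windows. The step down towards NBAS was thus present in all 4 IMR-32 libraries. In CHP-134, an N-MYC peak beyond the end of MYCN (CACGTG site 3) had a ratio of 1.44 in DMSO replicate 3 and 1.06 in compound replicate 3, which was at the background of the rest of the list.

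At 2p14 the lines differed in kind. The CHP-134 N-MYC peaks in the MEIS1 window had ratios between 0.533 and 1.16, except 1 peak of DMSO replicate 2 whose background could not be solved, and CHP-134 lists had no peak in the ETAA1 window. In IMR-32, the ratio was 10 or more at 17 of the 19 peaks listed for N-MYC in the MEIS1 window and at 9 of the 11 listed for WDR5. The change fell inside the MEIS1 gene in the IMR-32 libraries that listed peaks on both sides of it. The 4 IMR-32 peaks up to 13.1 kb from the start of MEIS1 had ratios of 0.815 to 1.38. The 26 peaks from 85.8 kb onwards had ratios of 39.8 to 56.6, with no peak listed between. Of the 4 low peaks, 2 came from N-MYC replicate 1 and 2 from WDR5 replicate 3. N-MYC replicate 2 and WDR5 replicate 1 listed no peak before the change. The high stretch ran on through ETAA1, where ratios were 27.9 to 39.5 at 6 N-MYC peaks and 29.9 to 33.1 at 4 WDR5 peaks, and the last such summit of N-MYC replicate 1 was at 67704887. The next peak of its list, at 67982783, was back at a ratio of 1.42.

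**Figure D3:**
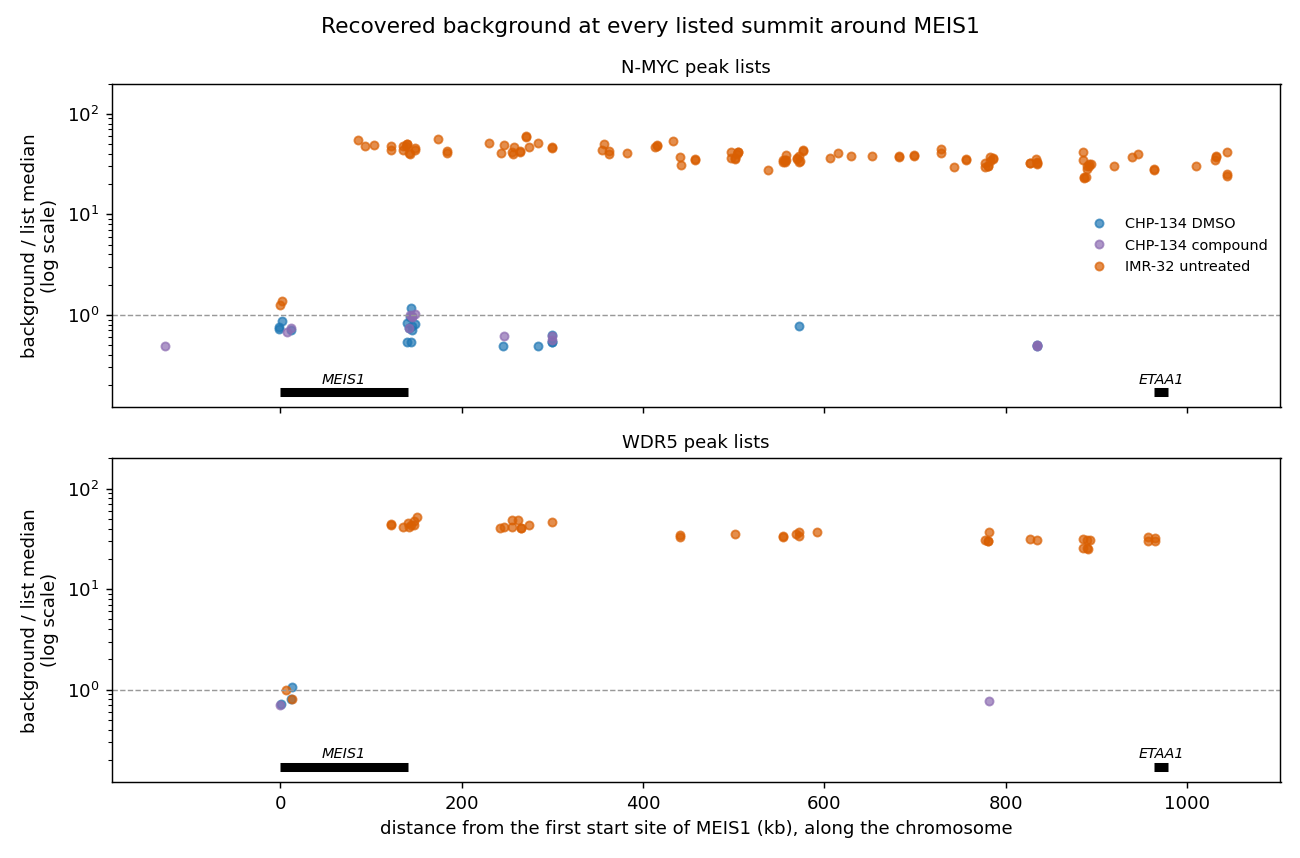
Local background at every listed summit around MEIS1 and ETAA1, divided by the median of the same list (y axis, log scale), against distance from the first TSS of MEIS1 (x axis, kb), for N-MYC lists (top) and WDR5 lists (bottom). Black bars are gene bodies and the dashed line is the list median. IMR-32 points jump from about the median near the start of MEIS1 to above 20 from 85.8 kb onwards, while CHP-134 points stay near the median.

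Peaks at TSSs also differed between the lines. A gene was called for a group when at least 2 libraries listed a peak within 1 kb of one of its TSSs. For N-MYC, 1 of 6 members was called in CHP-134 DMSO cells, 1 of 6 with the compound and 5 of 6 in IMR-32, where 26.6%, 21.2% and 10.9% of all genes were called. For WDR5, 4 of 6 were called in CHP-134 DMSO cells, 0 of 6 with the compound and 5 of 6 in IMR-32, where 5.93%, 0.919% and 3.35% of all genes were called. The IMR-32 calls were MYCN, MYCNOS, DDX1, NBAS and ETAA1 for both antibodies, each in both libraries, and MEIS1 had a peak in 1 library of each antibody. The N-MYC calls of CHP-134 were MEIS1 alone, and the WDR5 calls of DMSO cells were MYCN, MYCNOS and DDX1 (replicates 1 and 3) and MEIS1 (replicates 1 and 2). MEIS1 was called through different alternative TSSs, since the N-MYC summits of DMSO replicates 1 and 2 were at 66662442 and 66672478, and no MEIS1 call remained when only basic transcripts were used. Without peaks of high background, 0 of 6 members were called for either antibody in IMR-32 and 1 of 6, MEIS1, for WDR5 in CHP-134 DMSO cells. In IMR-32 that limit left only 2 and 0 N-MYC peaks and 0 and 2 WDR5 peaks in the windows, so hardly any call was possible.

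DDX1 carried the strongest IMR-32 N-MYC peak of the genome by q-value. Its summits, 513 and 511 bp downstream of the annotated start, had a −log10 q of 1084 in replicate 1 and 717 in replicate 2, which was rank 1 in both lists, as was the pileup of 1497 and 970 fragments. The fold over the local background was 13.4 and 13.9, rank 209 of 8286 and rank 144 of 5242, with a background ratio of 40.2 and 42.1. The peak was thus first by height, and its fold stood at percentile 97.5 and 97.3 of the list. The CACATG in capitals in the DDX1 sequence above was centred 1 bp from the summit. A motif of the form CANNTG within 15 bp of the summit was present at 31.9% of all IMR-32 N-MYC sites found in both libraries. WDR5 summits lay 69 to 74 bp from those of N-MYC, with a fold of 9.96 and 9.03 and a rank by −log10 q of 81 of 1693 and 80 of 1258. No CHP-134 N-MYC list had a peak within 1 kb of a DDX1 TSS. In CHP-134 DMSO cells, the WDR5 peak at DDX1 in replicates 1 and 3 had the highest pileup of each list, but its fold was 1.37 in both, rank 4889 of 4891 and rank 1671 of 1671.

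MYCN showed broad peaks rather than steep ones in IMR-32. In IMR-32, the N-MYC peak over its start was the second widest of both lists, and its summit lay 257 and 285 bp upstream of the start. Its fold was 4.22 in replicate 1 and 4.55 in replicate 2, at rank 6578 of 8286 and 4288 of 5242, while its −log10 q was 136.5 and 93.96, at rank 17 and 18. WDR5 summits were 51 to 84 bp away, with a fold of 3.11 and 3.12. A second N-MYC peak of both IMR-32 libraries lay in an intron of MYCN, and these peaks also count for MYCNOS. CHP-134 N-MYC lists had no peak at the start of MYCN in any of 6 libraries. WDR5 was listed there in DMSO replicates 1 and 3, with a fold of 1.399 and 1.381. These DMSO peaks were not among the widest, at rank 1718 of 4891 and 910 of 1671 by width. WDR5 was also listed there in compound replicate 1 (fold 1.55, the widest peak of its list). MYCNOS had 2 sites of its own beyond its end with CACGTG 1 and 4 bp from the summit, and the second of them had a fold of 5.68 in each IMR-32 N-MYC library.

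NBAS and ETAA1 had promoter peaks in IMR-32 for both antibodies. In IMR-32 N-MYC lists the fold was 2.21 and 2.35 at NBAS and 3.36 and 3.33 at ETAA1, and the WDR5 folds were 3.05 and 2.51 at NBAS and 3.36 and 3.28 at ETAA1. N-MYC and WDR5 summits were at most 87 bp apart at NBAS and 154 to 197 bp apart at ETAA1. No list of CHP-134 held a promoter peak of either gene. NBAS did carry an N-MYC site in an intron (the NBAS intron sequence above) that 7 of 8 libraries listed, with DMSO replicate 1 missing, the most of any site outside the MEIS1 locus. Its fold was 1.97 and 2.63 in DMSO replicates 2 and 3, 2.44, 1.83 and 2.98 in the compound replicates, and 5.06 and 5.22 in IMR-32. The summits of the 7 libraries fell within 31 bp of each other, and the background ratio was 25.7 to 40.4. The site holds no CACGTG within 100 bp, and its nearest CANNTG is centred 10 bp from the summit.

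N-MYC peaks also lay past the end of MEIS1 in both lines. Between 66801764 and 66806315, downstream of the gene, the 2 IMR-32 N-MYC lists held a single peak of 4552 and 4498 bp, the widest of the whole list in both. The 2 IMR-32 WDR5 lists also had their widest peak there, of 3374 and 4249 bp. Fold was 4.17 and 3.96 for N-MYC and 2.06 and 2.14 for WDR5, on background ratios of 39.8 to 43.0. In the same stretch CHP-134 DMSO N-MYC lists held 2, 3 and 1 separate peaks and compound lists 2, 0 and 2, of 326 to 921 bp, with ratios of 0.533 to 1.16. The stretch was thus listed as shorter peaks in CHP-134 and as 1 wide peak in IMR-32. The pileup at the summit was 13.17 to 24.98 at these CHP-134 N-MYC peaks, and 461 and 264 at the IMR-32 N-MYC peaks. Whether the listed form of the peaks followed binding, coverage or sequencing format was not tested. CACGTG site 4, in the last exon of MEIS1, was listed in 2 DMSO and both IMR-32 N-MYC libraries, the only site with CACGTG that both lines shared.

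Fold and q-value ordered the peaks of the members differently. With a Poisson p-value, a peak on a higher background passes the same threshold with a lower fold. This order, and the counts of low-fold peaks below, were thus largely fixed by the background and add no separate support. Rank was also a measure by which the genes were chosen. The median percentile of fold within the list, where 50 is the middle, was 37.7, 18.5 and 0.187 in CHP-134 DMSO N-MYC libraries and 1.32 and 1.64 in IMR-32. The median percentile of −log10 q in the same libraries was 30.5, 25.8 and 77.8 in CHP-134 and 83.0 and 91.9 in IMR-32. IMR-32 N-MYC peaks in the windows were thus mostly near the bottom of the list by fold and high in it by q-value. So were the N-MYC peaks of DMSO replicate 3, where 8 of 11 had a ratio of 10 or more. IMR-32 WDR5 peaks were near the bottom by fold (2.66 and 1.95) but near the middle by q-value (55.2 and 45.5). Of the IMR-32 N-MYC peaks in the windows, 22 of 38 and 16 of 27 had a fold below the lowest one at any peak of ordinary background in the same list, which was 2.24 and 2.75. Among IMR-32 WDR5 peaks these were 14 of 18 and 13 of 18. In CHP-134 DMSO lists they were 0 of 6, 1 of 7 and 3 of 11 for N-MYC. For DMSO WDR5 they were 6 of 7, 0 of 2 and 3 of 3, and compound WDR5 replicate 1 had 33 of 34. The median width of window peaks divided by that of the list was 1.17 ± 0.0652 (SD, n = 2) for IMR-32 N-MYC, 1.61 ± 0.283 (SD, n = 2) for IMR-32 WDR5, 0.780 ± 0.0683 (SD, n = 3) for CHP-134 DMSO N-MYC and 1.10 ± 0.291 (SD, n = 3) for CHP-134 DMSO WDR5.

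**Figure D4:**
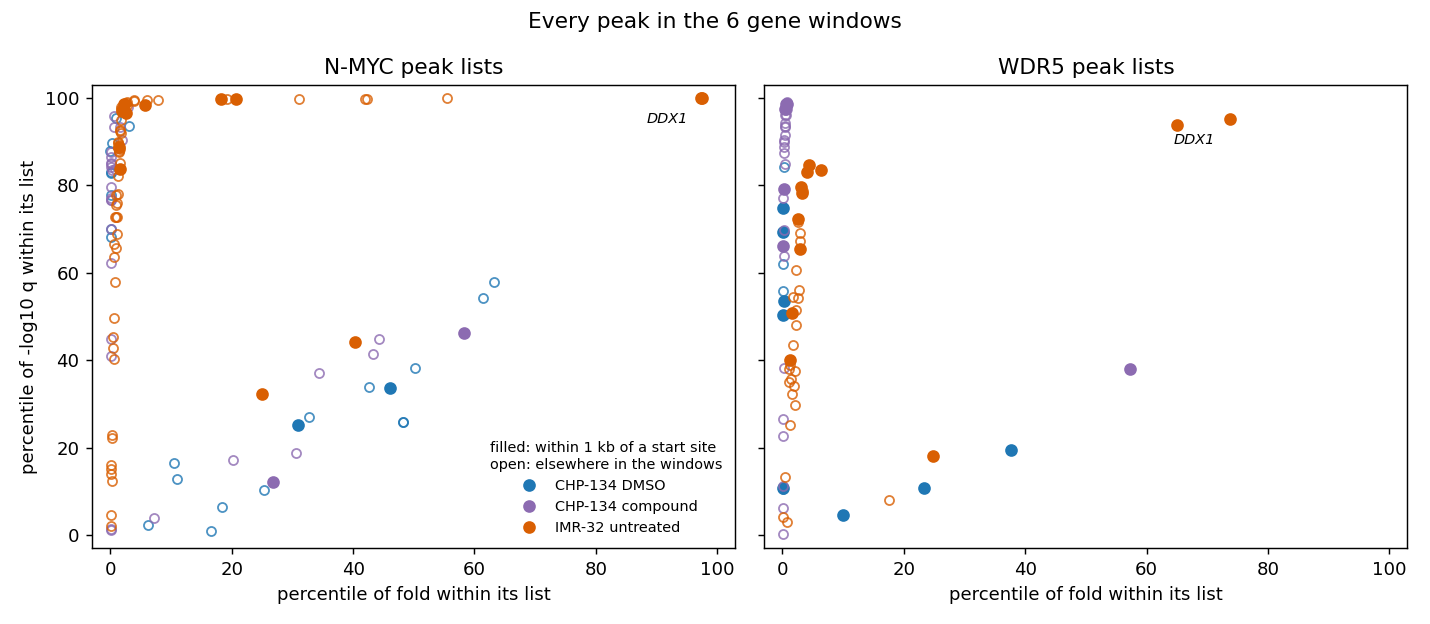
Every peak in the 6 gene windows by its percentile of fold (x axis) and of −log10 q (y axis) within its own list, for N-MYC (left) and WDR5 (right). Filled points lie within 1 kb of a TSS, open points elsewhere in the windows, and colours give line and treatment. Most IMR-32 points hug the left edge. They reach high on the y axis for N-MYC, while for WDR5 their medians are near its middle. The IMR-32 peak at DDX1 stands alone at the upper right.

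The share of window sites that recurred between libraries stood above that of the whole list in IMR-32 and below it in CHP-134. Of the merged IMR-32 N-MYC regions, 24 of 41 in the windows (58.5%) were found in both libraries, against 43.2% of 9390 over the genome. For IMR-32 WDR5 it was 13 of 22 (59.1%) against 51.0%. In CHP-134 DMSO cells, 5 of 18 N-MYC regions in the windows (27.8%) were found in at least 2 libraries, against 60.85% over the genome, and 2 of 10 WDR5 regions, against 28.0%. Of the 13 IMR-32 WDR5 sites found in both libraries, 11 (84.6%) overlapped an N-MYC site of that kind, against 43.4% of 993 over the genome and 28 of the 33 that stood on high background. In CHP-134 DMSO cells, 0 of 2 such WDR5 sites overlapped N-MYC, against 87.3% of 1646. CACGTG within 100 bp of the summit was present at 3 of 24 IMR-32 N-MYC sites in the windows (12.5%) and at 43.0% of all 4054 (95% exact Clopper-Pearson interval 41.4 to 44.5, counting error only). Sites of 1 locus share their background and are not independent, so these shares are given without a test. Of the 56 N-MYC sites in all 8 libraries, 9 were listed in both lines, 15 in CHP-134 alone and 32 in IMR-32 alone.

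The compound was compared with DMSO within CHP-134, a contrast the choice of genes did not use. With N-MYC serum, compound libraries listed 9 of 11249, 2 of 2964 and 19 of 12313 peaks in the 6 windows, or 0.8001, 0.6748 and 1.543 per 1000 listed, against 0.393, 0.767 and 0.896 with DMSO. The groups overlapped, with a mean difference of 0.321 per 1000 (two-sided exact permutation test, p = 0.5, n = 3 and 3), and without peaks of high background the difference was -0.177 per 1000 (from -0.204 to -0.0368 when the limit was set at 5 or 20 times the median). At NBAS the values were 0, 0.110 and 0.489 per 1000 with DMSO and 0.267, 0.675 and 0.893 with the compound, a difference of 0.412 (exact p = 0.2, adjusted p = 1.0). The compound value was the higher in each same-numbered pair at NBAS (exact sign-flip p = 0.25, the smallest that 3 pairs can give). At MEIS1 they were 0.393, 0.658 and 0.163 with DMSO and 0.356, 0 and 0.244 with the compound, a difference of -0.204 (exact p = 0.4, adjusted p = 1.0). The values of the treatments overlapped at every member, and 3 libraries against 3 cannot give a p below 0.1. The adjustment (Benjamini-Hochberg) covered the 27016 genes with a window peak in any of these libraries, of which 1.28% had compound values all above and 3.13% all below the DMSO values, none of them a member. The p-values measure the spread between these libraries, each pooled from 3 ChIPs. For WDR5 the compound libraries listed 5973, 15 and 401 peaks in all and 34, 0 and 0 in the windows, so WDR5 was not compared between treatments.

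Genes that work with these members were called by the same promoter rule. Of 12 genes of ATR activation, the pathway of ETAA1, 10 had an N-MYC promoter peak in at least 2 DMSO libraries and 4 in IMR-32, RAD9A and RAD17 (a clamp subunit and its loader) among them in both. Of the 6 partners of DDX1 in the tRNA ligase complex and its cofactors, 4 and 2 were called, with FAM98A and ZBTB8OS in IMR-32. Of the 6 partners of NBAS at the endoplasmic reticulum 3 and 0 were called, and of 8 other TALE homeodomain genes 2 (PBX3 and PKNOX1) and 1 (PKNOX1). These lists stood beside 26.6% of all genes in DMSO cells and 10.9% in IMR-32, and they were chosen with results of these data known. All genes here include long noncoding RNA genes, and the share among protein-coding genes alone was not computed. The lists can therefore not be called enriched. Compound libraries gave 7, 4, 2 and 2 calls for the same lists, beside 21.2% of all genes. For WDR5 the calls in DMSO and IMR-32 cells were 7 and 1 for ATR activation, 2 and 0 for the tRNA ligase complex, 1 and 0 for the NBAS partners, and 1 and 2 for the TALE genes, beside 5.93% and 3.35% of all genes.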

How the data were processed

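N-MYC and WDR5 ChIP-seq peak lists of 16 libraries were analysed. The IgG libraries (3 per line) were not analysed here. Per the methods, the authors used Cutadapt for trimming, Bowtie2 for alignment to hg19, and MACS2 at q 0.05 on each library alone. Versions and the control library are not given in the sources used here. The deposited fold is a linear ratio of summit pileup to local background, the deposited p-value and the deposited q-value are given as −log10, and the authors' score is derived from q and was not used. Fold was ranked only within a list.

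Members and gene lists were chosen with earlier results of these data known. The members are always named, and other genes only where called in at least 2 libraries of a group. TSSs and gene bodies came from GENCODE 44 lifted to GRCh37. Pileup and background at a summit were recovered by solving the fold, (pileup + 1)/(background + 1), together with the Poisson p-value, a method added after the lists had been seen and tested on simulated data. In IMR-32 lists 100% of low pileups came out whole (tolerance 0.02). In CHP-134 lists 67.6% to 90.1% fell within 0.1 of a step of the library's scale. That step was the value at which the same pileups lined up best, so this share is no independent check. Overlap means at least 1 bp. Percentiles of promoter folds between treatments could not be computed, because 0 of 6 members had a promoter peak in all 6 libraries, so window peaks per 1000 listed were compared instead, by exact permutation. Same-numbered DMSO and compound N-MYC libraries deviated together weakly (correlations 0.264, 0.258 and 0.164 over 100 kb bins of the genome). Unlike-numbered pairs gave -0.228 to 0.102. Replicate numbers were taken to pair the libraries on this basis. Python 3.11.15, pandas 2.3.3, scipy 1.17.1, pysam 0.24.0 and samtools 1.23.1 were used. Alternatives were the flank, stricter q, equal numbers of peaks, listed bases, basic transcripts, other numbers of libraries, the replicate block and leaving out each library.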

Additional observations from a re-analysis of the deposited data

How the results depend on the processing

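The difference between IMR-32 and CHP-134 DMSO in the percent of listed N-MYC peaks inside the windows, 0.418 percentage points, was 0.229 with no flank, 0.592 with a flank of 100 kb, 0.534 at a −log10 q of at least 5, 0.277 with equal numbers of the strongest peaks, 0.775 as a percent of listed bases and, with settings chosen after the data had been seen, 0.148 with peaks at least as strong in fold as the weakest of ordinary background and -0.0309 with peaks of ordinary background alone. For WDR5 (1.10) these were 0.627 with no flank, 0.755 with equal numbers, 1.96 for bases, 0.282 by the fold limit and 0.0373 at ordinary background. The difference in the percentile of fold, -17.3 for N-MYC and -3.33 for WDR5, was 42.8 and 10.3 when −log10 q was ranked, and for WDR5 ranged from -6.09 to 2.19 when 1 library was left out (2.19 without DMSO replicate 2). Promoter calls of members fell to 0 with basic transcripts (N-MYC, DMSO and compound), to 0 at a −log10 q of at least 5 (N-MYC, compound), to 0 when every library was required (N-MYC DMSO and compound, WDR5 DMSO), to 0, 0 and 1 at ordinary background (IMR-32 N-MYC, IMR-32 WDR5 and DMSO WDR5), and rose to 4 when 1 library sufficed (WDR5, compound). Without 1 replicate they ranged from 0 to 1 for N-MYC in DMSO and compound cells and from 0 to 3 for WDR5 in DMSO cells, with 0 without DMSO replicate 1. The relative width was 0.734 as a mean (N-MYC, compound), 1.44 with no flank and 1.68 as a mean (N-MYC, IMR-32), and 0.946 with no flank, 0.904 with 100 kb and 1.15 as a mean for WDR5 with the compound (0.930, 1 library). The compound difference of 0.321 per 1000 became -0.177 at ordinary background and ranged from 0.0524 (without compound replicate 3) to 0.487 (without compound replicate 2). At MYCN that difference ranged from -0.0271 to 0.0271 when 1 library was left out, with 0.0135 without compound replicate 1 or 2. With the replicate block the difference over the windows was the same 0.321 (exact sign-flip permutation p = 0.5, smallest possible 0.25), and the block changed no call. With a ratio limit of 5 or 20 in place of 10, the N-MYC difference between lines was -0.0309 and -0.0363, the WDR5 difference 0.0373 and 0.0305 (percentage points), and the compound difference -0.204 and -0.0368 per 1000, while promoter calls were those at 10 (0 and 0 in IMR-32, 1 for WDR5 in DMSO cells). The causes of these changes were not tested, and the ratio limits take out nearly all IMR-32 peaks of the windows. Depth is unknown, and 2 IMR-32 libraries give little measure of spread.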

Other observations

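High background in IMR-32 was not limited to the loci of the 6 genes, and all of it was on chromosome 2. The N-MYC lists held 160 and 123 peaks with a background of 10 or more times the list median, of which 36 and 27 lay in the windows of the members. The WDR5 lists held 63 and 39, of which 18 and 16 lay there. Counting those in the windows, 65 and 54 of the N-MYC peaks lay at 2p24 and 68 and 46 at 2p14. For WDR5 these were 30 and 18, and 26 and 17. Peaks outside those stretches were nearest to genes such as ALK, a receptor tyrosine kinase of neuroblastoma, ASB3, ANTXR1 and GKN2. The rule did not name these genes in advance, and they were picked after their values had been seen. Over 15 libraries, the gene whose window counts were most like those of NBAS was ALK, at a Euclidean distance of 4.21 against 7.14 to a gene with no peak. The gene most like DDX1 was DDX11 (0.745, against 2.46), that most like MEIS1 was ITGAL (2.89, against 6.13) and that most like ETAA1 was BCAR3 (0.336, against 2.07). In CHP-134 N-MYC lists the high-background peaks off chromosome 2 lay near GBP2 and GBP7 on chromosome 1.

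Promoters further along the short arm of chromosome 2 also carried N-MYC. Of 29 annotated neighbours at 2p25 to 2p24, 15 had an N-MYC promoter peak in at least 2 DMSO libraries and 8 in IMR-32, among them ODC1 (ornithine decarboxylase, of polyamine synthesis), RRM2 (a ribonucleotide reductase subunit) and NOL10 (a nucleolar protein) in both lines. WDR5 was called at 3 of them in DMSO cells, E2F6, ODC1 and RRM2, and at 2 in IMR-32. Of 20 neighbours at 2p14, 9 were called for N-MYC in DMSO cells and 7 in IMR-32, with RAB1A, PNO1 and PPP3R1 in both. The shares of all genes called were 26.6% in DMSO cells and 10.9% in IMR-32 for N-MYC, and 5.93% and 3.35% for WDR5. These shares include long noncoding RNA genes, and shares among protein-coding genes alone were not computed, so the neighbours cannot be called enriched.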
